A study of Homo sapiens with 12 samples.

Results

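The comparison described here set 3 libraries of cells transfected with a K139Q MSX1 plasmid (K139Q) against 3 libraries transfected with the empty vector (Vector), out of 12 libraries in the series. K139Q replaces the named lysine of MSX1 with glutamine, which resembles acetylated lysine. Its members are the 666 genes listed in the deposited expression matrix, of which 665 could be used and 533 were tested. The other 6 libraries received wild-type MSX1 (MSX1) or K139R, in which the same lysine is replaced by arginine, a residue that cannot be acetylated. All 12 libraries came from plasmid-transfected cells labelled HEPM, an established line of human embryonic palatal mesenchyme, and all carry a time of 8 h. The study's methods name mouse MEPM cells instead, but the gene identifiers are human. The plasmids carried GFP-tagged full-length MSX1, so that MSX1 values count plasmid and cellular transcripts together. The library names of the K139Q group carry R157K where the titles say K139Q, and those of the K139R group carry R157S. The titles were followed for both.

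MSX1 is a homeodomain transcription factor, mostly a repressor, that is needed in the mesenchyme of the developing palate. Loss of MSX1 function causes cleft palate and missing teeth. Acetylation of a lysine removes its positive charge, and a glutamine substitution is commonly used to imitate this. The comparison asks which transcripts differ when the acetylation mimic is present, and how far its 3 libraries show the same picture.

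The matrix does not hold all genes. The authors chose the 666 genes because they differed between the MSX1 and Vector libraries, and these are the same Vector libraries that K139Q was set against. Of the 533 tested genes, 384 had a higher and 149 a lower mean in MSX1 than in Vector. The direction of the K139Q changes is therefore not independent evidence. Of 15 palatal mesenchyme markers only 2 are in the matrix, so the labelled cell type could not be checked against its defining markers. Values are expression values in an unstated unit, in steps of 0.01, and the number of reads behind them is unknown.

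The MSX1 transcript was checked first. Its value was 8560, 13893 and 8006 in K139Q replicates 1, 2 and 3, and 20.3, 17.2 and 18.7 in the Vector libraries. The groups were far apart, and the mean rose from 18.7 ± 1.57 to 10153 ± 3251 (SD, n = 3). The log2 fold change was 8.97 ± 0.30 (SE, limma adjusted p = 2.3e-11), and the exact two-sided permutation test gave p = 0.1, the smallest that 3 against 3 libraries allow. Replicate 2 held the highest MSX1 value of the K139Q group.

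Most tested genes differed between K139Q and Vector, and most of these rose. Of the 533 tested genes, 391 passed an adjusted p of 0.05 in limma (73.4%), with 341 higher (64%) and 50 lower (9.38%) in K139Q. All 341 were among the 384 genes with a higher mean in MSX1 than in Vector, and all 50 among the 149 with a lower mean. Gene lists below are set beside the 64% of all tested genes. For their genes that were higher in MSX1, 341 of 384 is the nearer mark. The median log2 fold change over all tested genes was 0.69, and it was 0.89 for the genes that rose and -0.70 for those that fell. A change of at least 1 on the log2 scale was reached by 128 of the genes that rose and 10 of those that fell. A change of at least 2 was reached by 19 and 1. Changes are differences of log2(value + 1), which understate the change of low genes. For the 341 genes that rose, the median ratio of the group means was 2.70, and 302 had a ratio of at least 2 and 75 a ratio of at least 4. A gene was tested if its mean reached 1 in any group. Of the 341, 163 had a Vector mean under 1 and so entered the test only through a group where they were higher. Of the 50 that fell, 15 had a K139Q mean under 1. Without this filter, 395 of 665 genes were called higher and 58 lower.

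The split between higher and lower depended on the scaling. With quantile normalization, which forces the 12 libraries to 1 distribution over these chosen genes, 114 genes were higher and 117 lower, and the median fell from 0.69 to 0.17. Without Vector replicate 1 the number of genes that fell was 28 in place of 50.

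**Figure D1:**
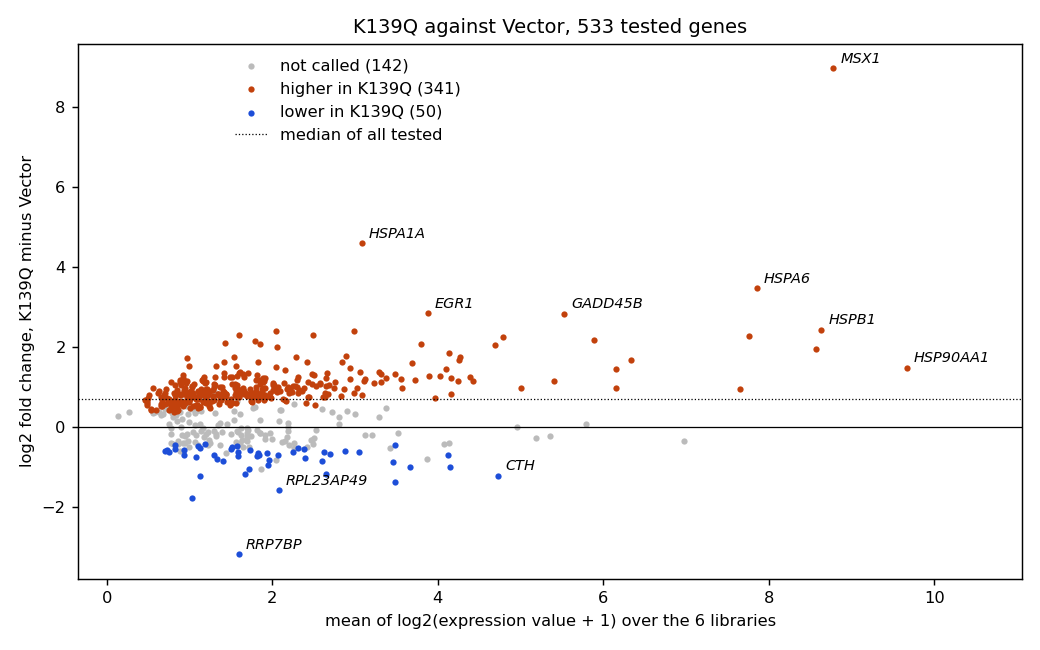
Log2 fold change of K139Q against Vector (vertical axis) by mean log2(expression value + 1) over the 6 libraries (horizontal axis) for the 533 tested genes, 1 point a gene, with orange for the 341 higher, blue for the 50 lower and grey for the 142 that did not pass. The dotted line is the median of 0.69, and under quantile normalization the split was 114 higher and 117 lower and HSP90AA1 and HSPB1 changed sign.

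The heat shock genes HSPA1A and HSPA6 had the 2 largest rises after MSX1 among genes with a symbol. Heat shock proteins are chaperones that keep other proteins folded, and cells raise their transcription through HSF1 when proteins misfold, among other triggers. Only 4 of 28 listed HSP70, HSP40 and HSP90 genes and 3 of 10 small heat shock genes are in the matrix. The others could not be assessed here. All 4 of the tested HSP70, HSP40 and HSP90 genes and all 3 of the tested small heat shock genes rose, beside 64% of all tested genes. Each had a higher mean in MSX1 than in Vector, and 341 of the 384 such genes rose. Their median log2 fold changes were 2.71 and 2.15, beside 0.69 over all tested genes. Under quantile normalization HSP90AA1, DNAJB1 and HSPB1 changed sign. HSP90AA1 (limma adjusted p = 4.5e-07) and DNAJB1 (0.0032) passed there as lower, and HSPB1 was near 0 (-0.022). With MSX1 left out of that scaling HSPB1 was positive (0.49), HSP90AA1 and DNAJB1 stayed negative, and none of these passed.

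HSPA1A, the main inducible HSP70, was 31.4, 64.4 and 32.6 in K139Q and 1.18, 0.51 and 0.54 in Vector (log2 fold change 4.59 ± 0.34, limma adjusted p = 4.3e-07). Its near-identical copy HSPA1B could share its reads, so its value is uncertain. HSPA6, a strictly stress-inducible HSP70, was 638.5, 1103 and 644 in K139Q and 74.8, 57.9 and 74.4 in Vector, a ratio of means of 11.5. Its pseudogene HSPA7, which can share reads with it, was 7.73, 5.85 and 1.84 against 0.27, 0.38 and 0.25. In each of these genes the groups did not overlap, and for HSPA1A and HSPA6 replicate 2 was the highest of the K139Q libraries.

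DNAJB1, the HSP40 partner of HSP70, was 821, 863 and 587 in K139Q and 185, 195 and 195 in Vector, with a log2 fold change of 1.96 ± 0.18. HSP90AA1, the inducible HSP90, was 1554, 1367 and 1164 against 506, 445 and 508 (1.48 ± 0.21). Replicate 3 was the lowest K139Q library in both genes, and all 3 were well above Vector. HSPB1, or HSP27, was 578, 1494 and 907 against 180.5, 156 and 173 (2.44 ± 0.38), so that replicate 2 was far above replicate 1. CRYAB, a small heat shock protein of muscle and lens, rose from 0.67 ± 0.39 to 6.36 ± 1.32, and HSPB8, which acts with BAG3 in protein quality control, rose from 9.63 ± 1.75 to 34.8 ± 6.92 (SD, n = 3).

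The promoters of the heat shock genes are shown because HSPA1A and HSPA6 rose most after MSX1 and the known regulator of the group has a short, recognizable site. HSF1 binds inverted repeats of GAA, written here as GAANNTTC or TTCNNGAA. Each spelling reads the same on both strands. In the 250 bases before the start, at least 1 such match was found for 6 of the 6 tested heat shock genes that have a RefSeq promoter window (GRCh38.p14). CRYAB was not in the table. Across all genes with a window, 14% held a match, and 11.6% of all windows did. Genes with several starts have several windows, and 6 of the 9 windows of the heat shock genes held a match. The core TAATTG, bound by many homeodomain proteins including MSX1, was found on either strand in 0 of the 6 and in 8.16% of all genes with a window. Only 321 of the 533 tested genes had a window. Of these, 10.6% held a heat shock match and 3.12% the core TAATTG. A heat shock match was found in 8.72% of the 218 genes called higher and 14.8% of the 27 called lower that had a window. At this coverage the difference was not tested. A match is a spelling and not a site. The 6 genes were picked as heat shock genes, whose known regulator binds this spelling, so their count is a description and not a test. With only 6 genes, 0 matches of TAATTG cannot be told from a share of 8.16%. The 200 bases before a RefSeq start follow for 5 of the genes, in lower case with the matches in capitals. For DNAJB1 and HSP90AA1 the window with matches is given. In HSPA6 and HSP90AA1, 2 matches overlap and form 1 longer run of capitals.
HSPA1A (chr6:31815343-31815542, plus strand): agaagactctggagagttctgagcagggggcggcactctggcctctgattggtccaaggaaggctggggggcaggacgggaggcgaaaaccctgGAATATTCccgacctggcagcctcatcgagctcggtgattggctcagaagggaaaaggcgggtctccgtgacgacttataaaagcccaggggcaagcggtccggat
HSPA6 (chr1:161524340-161524539, plus strand): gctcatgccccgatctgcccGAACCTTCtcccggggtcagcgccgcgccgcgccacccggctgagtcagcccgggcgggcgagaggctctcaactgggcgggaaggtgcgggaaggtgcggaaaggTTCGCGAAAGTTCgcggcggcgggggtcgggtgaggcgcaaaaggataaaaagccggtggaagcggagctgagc
DNAJB1 (chr19:14518398-14518597, minus strand): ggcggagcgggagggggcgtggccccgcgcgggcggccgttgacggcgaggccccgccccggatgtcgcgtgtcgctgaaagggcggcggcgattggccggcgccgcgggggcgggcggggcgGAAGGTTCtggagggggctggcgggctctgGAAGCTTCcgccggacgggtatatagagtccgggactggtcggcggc
HSP90AA1 (chr14:102087045-102087244, minus strand): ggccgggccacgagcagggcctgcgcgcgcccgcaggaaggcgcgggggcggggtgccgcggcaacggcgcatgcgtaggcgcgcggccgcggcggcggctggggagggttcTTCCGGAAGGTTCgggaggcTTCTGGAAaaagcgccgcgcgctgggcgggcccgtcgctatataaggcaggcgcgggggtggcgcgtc
HSPB1 (chr7:76302473-76302672, plus strand): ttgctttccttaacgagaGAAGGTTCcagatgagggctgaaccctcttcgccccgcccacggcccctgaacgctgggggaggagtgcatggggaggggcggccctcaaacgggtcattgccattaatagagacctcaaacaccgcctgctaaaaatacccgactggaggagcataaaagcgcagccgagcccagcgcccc

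Other stress genes rose beside the chaperones. SERPINH1, also called HSP47, a collagen chaperone of the endoplasmic reticulum, was 477, 595 and 375 in K139Q and 104, 99.5 and 91 in Vector (log2 fold change 2.26 ± 0.21, limma adjusted p = 2.8e-06). Under quantile normalization its log2 fold change was about 0 and did not pass (adjusted p = 1). It was the only 1 of 20 listed endoplasmic reticulum stress genes in the matrix. Of 33 genes on the oxidative stress, growth arrest and death list, 3 are in the matrix. All 3 rose, beside 64% of all tested genes. GADD45B, induced by many stresses, was 130, 142 and 97.8 against 15.4, 17.1 and 16.3, a ratio of means of 7.58. HMOX1, which breaks down heme, rose from 27.6 ± 7.22 to 125 ± 14.5, and CDKN1C, a cyclin-dependent kinase inhibitor, from 5.44 ± 1.10 to 13.1 ± 4.28 (SD, n = 3). The groups did not overlap in any of these genes, and CDKN1C lost its call under quantile normalization (0.52, adjusted p = 0.064).

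Immediate early genes are transcribed within minutes of a stimulus without new protein synthesis, and 6 of the 30 listed are in the matrix. All 6 rose, beside 64% of all tested genes. Their median log2 fold change was 2.03, beside 0.69 over all tested genes. EGR1, a zinc finger transcription factor, was 44.2, 48.0 and 26.6 in K139Q and 4.95, 4.53 and 4.04 in Vector (2.84 ± 0.23, limma adjusted p = 6.8e-07). FOSB, a partner of JUN in AP-1, was 8.25, 7.51 and 6.42 against 1.15, 1.05 and 1.04. For EGR1 replicate 3 was well below the other 2 libraries, whereas the FOSB values lay close together. ARC, known from activated neurons, was 16.1, 22.9 and 13.9 against 3.28, 2.94 and 1.43, and JUNB was 41.0, 66.3 and 50.6 against 13.95, 10.5 and 10.9. The remaining 2 were ZFP36, which promotes decay of AU-rich mRNAs (log2 fold change 1.47 ± 0.23), and EGR3 (1.10 ± 0.21). EGR3 had a Vector mean of 0.33, so it entered the test only through a group where it was higher.

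**Figure D2:**
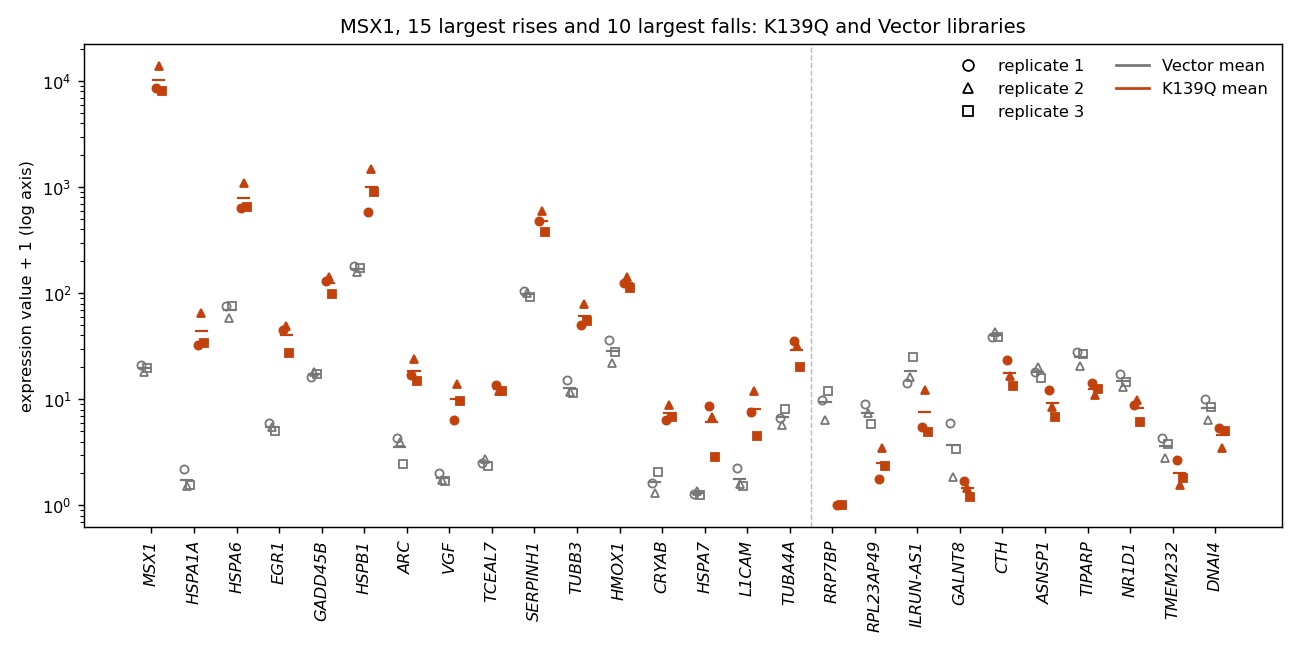
Expression value + 1 (vertical log axis) of MSX1, the 15 genes with a symbol that rose most and the 10 that fell most, with open grey symbols for Vector, filled orange symbols for K139Q, a marker shape for each replicate and a bar for the mean of 3. K139Q replicate 2 (triangles) reached 13893 for MSX1 and 1494 for HSPB1, above the other 2 libraries. HSPB1 alone of these genes changed sign under quantile normalization.

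Genes known from neurons were among the largest rises. All 4 tested members of the 23 neuronal markers rose, beside 64% of all tested genes, with a median of 1.65. TUBB3, a tubulin typical of neurons, was 48.7, 78.5 and 53.2 in K139Q and 14.1, 10.8 and 10.4 in Vector (2.24 ± 0.27, limma adjusted p = 2.8e-05). L1CAM, a neural adhesion molecule, was 6.52, 11.03 and 3.53 against 1.25, 0.60 and 0.51. MAP1A, a microtubule protein, rose by a log2 fold change of 1.22 ± 0.17. RBFOX3, a splicing factor of mature neurons, was 4.90, 6.77 and 4.76 against 2.47, 2.37 and 2.60. Its call (adjusted p = 0.041) was lost with the titles' replicate numbers as a block (adjusted p = 0.05015). That call was also lost without any single one of the 6 libraries. Further losses came with quantile normalization (adjusted p = 0.43), the GC trend removed (0.10), quality weights (0.076), a pseudocount of 5 (0.14) and no filter (0.054). The other 19 neuronal markers were not tested, most of them because the matrix does not list them.

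Outside these lists, VGF, a neuropeptide precursor, was 5.37, 13.0 and 8.58 in K139Q and 1.01, 0.73 and 0.68 in Vector. TUBA4A, an alpha tubulin, was 34.4, 31.1 and 19.1 against 5.60, 4.69 and 7.19. TCEAL7 was 12.5, 10.9 and 10.97 against 1.53, 1.71 and 1.37, and its 3 K139Q values were among the closest to each other of all called genes with a K139Q mean of at least 10.

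Of 18 listed epithelial, 21 muscle and 15 palatal mesenchyme markers, 2, 1 and 2 were tested. Of the tested markers, 2 of 2 epithelial (KRT17 and EPCAM), 1 of 1 muscle (TNNT1) and 2 of 2 palatal mesenchyme markers (S100A4 and COL1A1) passed the test, all higher, beside 64% of all tested genes. Under quantile normalization 1 epithelial, 0 muscle and 0 palatal mesenchyme markers were higher, and the adjusted p was 0.27 for EPCAM, 0.80 for TNNT1, 0.084 for S100A4 and 0.14 for COL1A1. The summed value of the 4 tested neuronal markers was 14.9 to 19.6 in the Vector and 64.5 to 102 in the K139Q libraries. That of the epithelial markers was 2.29 to 2.71 against 6.17 to 6.90, and that of TNNT1 15.5 to 35.0 against 36.3 to 49.7. Their part in the other changes was not tested. None of the 10 endothelial markers is in the matrix. In bulk RNA, more cells of a kind and more RNA per cell cannot be told apart. TNNT1 lost its call without Vector replicate 3.

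In the Notch pathway, receptors on 1 cell are cut after binding ligands on its neighbour. Of 28 listed members, 8 are in the matrix and 7 were tested. Of the 7, 6 rose and 1 fell, beside 64% higher and 9.38% lower of all tested genes. Their median log2 fold change was 0.70, beside 0.69 over all tested genes. DLL4, HES7 and LFNG had Vector means under 1 and entered the test only through a group where they were higher. Under quantile normalization 2 members were higher, and NOTCH3 (adjusted p = 0.38) and DLL4 (adjusted p = 0.28) did not pass. The receptor NOTCH1 was 17.0, 24.2 and 11.4 in K139Q against 6.78, 6.59 and 5.03 in Vector (1.32 ± 0.28, limma adjusted p = 0.0014). The receptor NOTCH3 rose by 0.81 ± 0.23, the target HES5 by 1.24 ± 0.23, and the ligand DLL4 by 0.70 ± 0.21, a call that was lost without K139Q replicate 2 (adjusted p = 0.05007). HEY2, another Notch target, was 8.93, 9.12 and 7.78 against 13.96, 9.94 and 12.7, and its fall (-0.45 ± 0.18, adjusted p = 0.036) did not pass in 5 of the 6 fits that left out 1 library or in 2 of the 3 fits that took replicate number as a block.

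Of 39 listed WNT pathway genes, 6 are in the matrix and 5 were tested. All 5 rose, beside 64% of all tested genes, with a median of 0.99. Under quantile normalization 2 of them were higher, and WNT6 (adjusted p = 0.059) and SFRP1 (adjusted p = 0.68) did not pass. They were the ligands WNT6 (1.15 ± 0.28), WNT7B (1.05 ± 0.20) and WNT9A (0.99 ± 0.16) and the secreted inhibitors SFRP1 (0.64 ± 0.19) and DKK3. All stood under 4 in every K139Q library, so their values are imprecise. WNT6, WNT7B and WNT9A also had Vector means under 1, so they entered the test only through a group where they were higher. None of the 5 reached the filter at a mean of 5. In the BMP and TGF-beta list, GDF15, a stress-induced ligand, rose from 8.57 ± 2.64 to 33.0 ± 8.33. The inhibin subunit INHBB rose by 0.99 ± 0.16. SKIL, an inhibitor of SMADs, had a log2 fold change of -0.52 ± 0.30 that did not pass. It passed as lower under quantile normalization (-1.33, limma adjusted p = 0.012) and as higher with the GC trend removed (0.42, adjusted p = 0.033). FGF5 was the only tested gene of the FGF and hedgehog list (0.32 ± 0.31, not passed), and its sign changed under quantile normalization, whereas with the GC trend removed it was called higher (1.12, adjusted p = 0.0021).

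Of 32 palate transcription factors and reported MSX1 targets, 4 are in the matrix and 2 were tested. SNAI1, a repressor of cell adhesion genes, was 4.27, 5.34 and 2.69 in K139Q and 1.22, 0.70 and 1.04 in Vector (1.33 ± 0.24, limma adjusted p = 0.00043). FOXC2, a forkhead factor of mesenchyme, rose by 0.93 ± 0.22, and did not pass under quantile normalization (adjusted p = 0.058). SNAI1 and FOXC2 had Vector means of 0.99 and 0.38, so both entered the test only through a group where they were higher. Neither reached the filter at a mean of 5.

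Of 35 listed mesenchymal matrix genes 6 were tested, and of 26 matrix proteases 4. Of the 6 matrix genes, 5 rose and 1 fell, with a median of 0.92. All 4 proteases rose, with a median of 1.00, beside 64% higher of all tested genes. Under quantile normalization 1 matrix gene and 2 proteases were higher, and COL1A1 (adjusted p = 0.14), MMP2 (0.37) and MMP17 (0.31) were among those that did not pass. The collagen chaperone SERPINH1 is counted here again. THBS2 and COL12A1 had Vector means under 1 and entered the test only through a group where they were higher. TNC, an extracellular glycoprotein, was 10.2, 7.36 and 7.71 in K139Q against 2.40, 2.19 and 1.59 in Vector (1.62 ± 0.18), and COL1A1 was 7.60, 11.4 and 8.68 against 5.14, 4.19 and 3.6 (0.94 ± 0.23). THBS4, a thrombospondin, was 4.55, 2.67 and 2.23 against 5.75, 6.06 and 5.79, so that all 3 K139Q libraries were below Vector (-0.77 ± 0.20, adjusted p = 0.0052). The proteases were MMP15 (1.06 ± 0.19), ADAMTS7 (1.01 ± 0.23), MMP17 and MMP2 (0.75 ± 0.22), and MMP17 lost its call without Vector replicate 3 or K139Q replicate 2 or 3.

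Of 29 listed inflammatory genes, 5 are in the matrix. All 5 rose, beside 64% of all tested genes, with a median of 1.23. IL11, CXCL8, TNFAIP2 and ICAM1 had Vector means under 1, so they entered the test only through a group where they were higher. With the filter at a mean of 5, 1 member was called higher. IL11, a cytokine of stromal cells, was 4.01, 5.68 and 3.50 in K139Q and 0.48, 0.63 and 0.67 in Vector (1.74 ± 0.25), and CXCL8, a chemokine for neutrophils, was 2.19, 2.25 and 1.38 against 0.38, 0.20 and 0.15 (1.23 ± 0.17). IL32 rose by 1.42 ± 0.23 and TNFAIP2 by 0.91 ± 0.18. The only tested interferon gene was IFI35 (0.80 ± 0.19, called higher), which lost its call under quantile normalization (0.26, adjusted p = 0.30). None of the 31 listed cell cycle genes is in the matrix.

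None of the 7 tested histone genes passed. All 7 had a lower mean in MSX1 than in Vector, and 99 of the 149 such genes did not pass either. Their absence from the calls is therefore no trait particular to histones. The median log2 fold change of the 7 was -0.19. H1-2, a linker histone, was 104, 117 and 112 in K139Q and 152, 124 and 147 in Vector (-0.34 ± 0.16, limma adjusted p = 0.062). It passed under 5 alternatives other than quantile normalization, and under that scaling 4 of the 7 were lower. H4C11, H3C2 and H4C5 overlapped between the groups, with log2 fold changes of -0.27 ± 0.84, 0.24 ± 0.22 and -0.23 ± 0.24. The sign of H3C2 changed under quantile normalization, that of H4C5 with the GC trend removed and that of H4C11 without Vector replicate 1. Near-identical histone copies can share reads, and poly(A) selection captures most histone mRNAs poorly, so these values are uncertain.

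**Figure D3:**
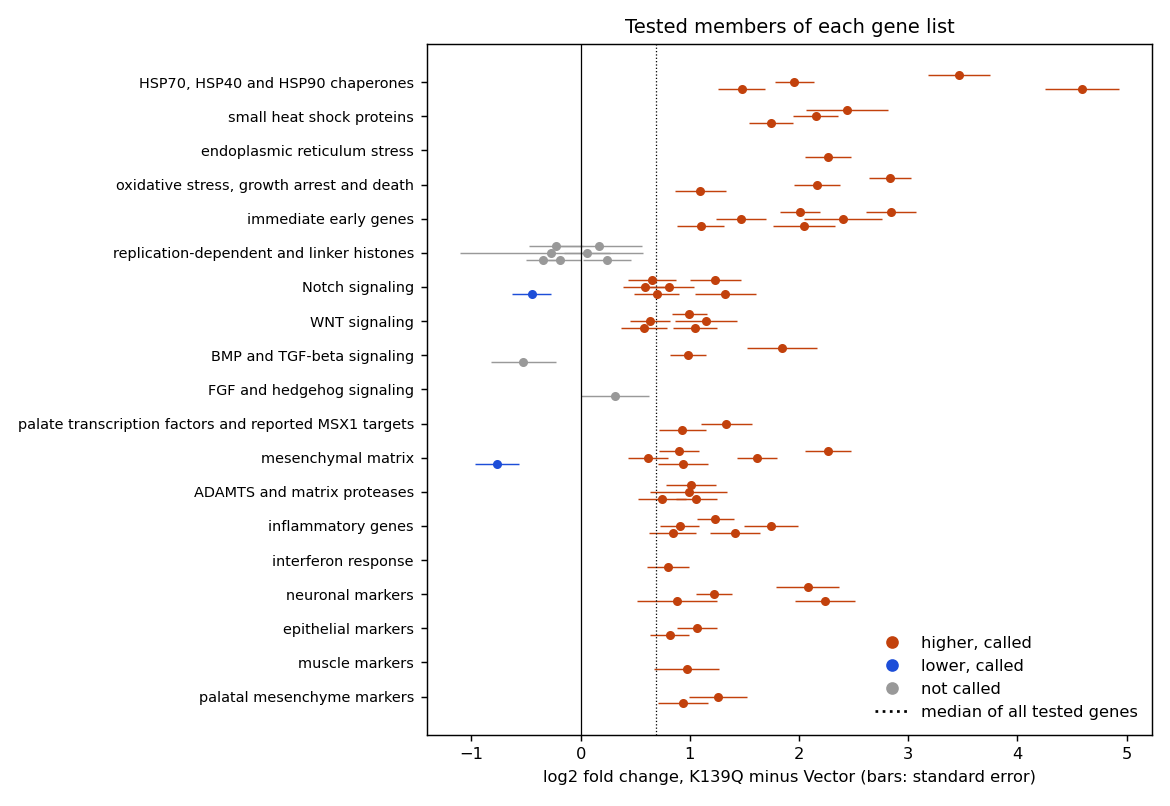
Log2 fold change of K139Q against Vector (horizontal axis, bars are the standard error) of each tested member of the gene lists (rows), with orange for higher, blue for lower and grey for genes that did not pass, and a dotted line at the median of 0.69. None of the 7 histone genes passed, and neither did 99 of the 149 genes with a lower mean in MSX1 than in Vector. The 7 heat shock genes lie between 1.48 and 4.59. HSP90AA1, DNAJB1, HSPB1, H3C2 and FGF5 changed sign under quantile normalization, and H4C5 and SKIL with the GC trend removed.

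Among the 50 genes that fell, 6 are annotated as pseudogenes, 5 as antisense and 9 have no symbol. Among the 341 that rose these numbers are 5, 3 and 14. The difference between the 2 sets was not tested. RRP7BP, a pseudogene of a ribosomal RNA processing factor, was 8.93, 5.41 and 10.9 in Vector and was listed at 0 in all 3 K139Q libraries, so no fold is given (limma adjusted p = 1.6e-05). RPL23AP49, a ribosomal protein pseudogene, was 0.76, 2.48 and 1.35 in K139Q against 7.94, 6.39 and 4.87. ASNSP1, a pseudogene of asparagine synthetase, was 11.2, 7.50 and 5.84 against 16.9, 19.3 and 15.0. Reads of a pseudogene can be shared with its parent gene, so these 3 values are uncertain.

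CTH, which makes cysteine from cystathionine, was 22.7, 15.5 and 12.3 in K139Q and 38.1, 42.0 and 38.0 in Vector (log2 fold change -1.22 ± 0.23, limma adjusted p = 0.00061), so that all 3 libraries fell well below Vector. TIPARP, an ADP-ribosyltransferase induced by the aryl hydrocarbon receptor, was 13.4, 10.0 and 11.4 against 26.9, 19.6 and 25.8 (-0.99 ± 0.25). NR1D1, a repressor of the circadian clock also known as REV-ERB alpha, was 7.82, 8.80 and 5.17 against 16.4, 12.1 and 13.5 (-0.88 ± 0.23). The remaining named falls were ILRUN-AS1, an antisense RNA that was 4.47, 11.2 and 3.95 against 13.2, 15.2 and 24.1, GALNT8, a glycosyltransferase (-1.22 ± 0.32), TMEM232 (-0.86 ± 0.30) and DNAI4, an axonemal dynein chain (-0.85 ± 0.27). With each library's GC trend removed, RPL23AP49, TMEM232 and DNAI4 did not pass, and TMEM232 and DNAI4 also lost their calls without K139Q replicate 2 or Vector replicate 1, among others.

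The 3 K139Q libraries agreed on direction and differed in size. The calls rest on these same libraries, so the following counts are a description. In each of the 3, every one of the 341 genes called higher was above the Vector mean and every one of the 50 called lower was below it, on the log2 scale. In 343 tested genes (64.4%) all 3 K139Q values lay above all 3 Vector values, and in 54 (10.1%) all lay below. Of the genes called higher, 331 were without overlap, and of those called lower, 42 were. The median absolute difference between 2 K139Q libraries was 0.25 to 0.32 on the log2 scale, beside 0.22 to 0.23 between 2 Vector libraries and 0.67 to 0.89 between a K139Q and a Vector library. A difference of at least 1 was found in 18 to 30 genes between 2 K139Q libraries, 8 to 11 between 2 Vector libraries and 110 to 233 between groups. The median log2 SD was 0.25 in K139Q and 0.19 in Vector, and 335 of the 533 genes varied more in K139Q. It was 0.18 in MSX1 and 0.31 in K139R. The genes were chosen by a test of MSX1 against Vector, which can favour a small spread in those groups. The spread of K139Q and Vector is therefore not compared on equal terms.

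Replicate 2 showed the largest rises. It was the highest of the 3 libraries in 223 of the 341 genes called higher, replicate 1 in 97 and replicate 3 in 23, with ties counted for each. Replicate 3 was the lowest in 191. The median change of these genes from the Vector mean was 0.86, 1.06 and 0.78 in replicates 1, 2 and 3, and a change of at least 1 was reached by 126, 192 and 94 genes. For the 50 genes called lower the order was another, with medians of -0.60, -0.65 and -0.77.

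**Figure D4:**
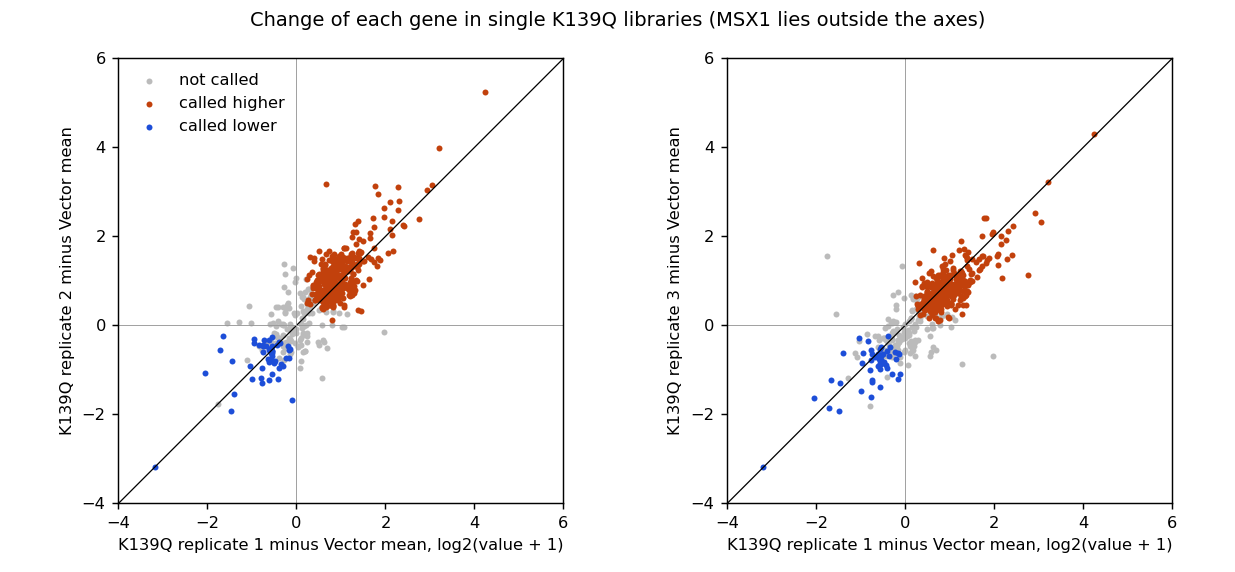
Change of each tested gene from the Vector mean on the log2(value + 1) scale in K139Q replicate 1 (horizontal axes) and in replicate 2 (left) or replicate 3 (right), 1 point a gene, with the line of equal change, orange for genes called higher and blue for lower. Replicate 2 was the highest library in 223 of the 341 orange genes, with a median change of 1.06, and replicate 3 had a median of 0.78. MSX1 lies outside the axes.

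Measures other than the plasmid also moved with replicate 2. Across the 510 tested genes with a known GC content, the deviation of a library from the K139Q mean had a Spearman correlation with GC of -0.50 in replicate 1, 0.52 in replicate 2 and 0.01 in replicate 3. The points share their libraries, and genes are not independent replicates. The genes called higher had a median GC of 59.1% and those called lower of 49.9%. With the GC trend of each library removed, 325 genes were higher and 28 lower. The part of GC content and of the MSX1 level in the differences between the K139Q libraries was not tested. Without replicate 2, 327 genes were called, 321 of them among the 391. Without replicate 1 these numbers were 365 and 355, and without replicate 3 they were 366 and 363.

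Single genes differed in how closely the libraries agreed. Among the 55 called genes with a K139Q mean of at least 10, EFNA3, an ephrin ligand, varied least, with 21.7, 23.9 and 20.8 in K139Q against 9.16, 7.47 and 8.95 in Vector. CLU, a secreted chaperone, was 150, 151 and 132 against 60.9, 41.9 and 33.9. PROCR, the protein C receptor, and IFI30, a lysosomal thiol reductase, followed with TCEAL7, and PROCR and IFI30 lost their calls under quantile normalization (adjusted p = 0.27 and 0.34). The log2 SD of these 5 genes was 0.097 to 0.14. At the other end, HSPB1 had a log2 SD of 0.68 and HSPA1A of 0.57. GPR50, an orphan receptor, was 17.2, 11.9 and 7.52 in K139Q, and IER5L, related to an immediate early gene, was 8.99, 18.4 and 12.1. NOTCH1 completed the 5 genes with the largest spread. The order of the libraries thus differed from gene to gene, with replicate 1 highest for GPR50 and replicate 2 for HSPB1.

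The acetylation mimic was also set against the other plasmids, to see where it differed from them and not only from Vector. The MSX1 transcript was 6554, 4672 and 6959 in the MSX1 libraries, all below the lowest K139Q value of 8006, and 13561, 7211 and 5812 in the K139R libraries. The part of this level in the differences below was not tested. In K139Q against MSX1, 5 of the 533 genes passed (0.938%), all higher in K139Q, and 70 had an unadjusted p under 0.05. The number of passing genes ranged from 1 to 15 over the alternatives, with 2 without K139Q replicate 2, 10 without K139Q replicate 3, and 3, 1 or 15 when replicate number was a block. The MSX1 libraries took part in choosing the genes, so this comparison is not independent of the choice.

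EGR1 was 15.4, 10.6 and 15.7 in the MSX1 libraries, below the K139Q values of 26.6 to 48.0 (log2 fold change 1.42 ± 0.23, limma adjusted p = 0.013). FOSB was 4.38, 2.76 and 3.01 there, below the K139Q values of 6.42 to 8.25 (0.95 ± 0.18, adjusted p = 0.021). The other 3 were histone genes whose 3 MSX1 values were all below the 3 Vector values, and which did not pass in K139Q against Vector. H3C2 was 3.17, 4.28 and 3.09 in MSX1 and 6.81, 11.4 and 11.4 in K139Q (1.25 ± 0.22, adjusted p = 0.016). H2BC5 was 23.3, 27.5 and 30.4 against 42.6, 71.6 and 55.9 (1.02 ± 0.21, adjusted p = 0.029), and H1-2 was 61.6, 57.2 and 67.8 against 104, 117 and 112 (0.83 ± 0.16, adjusted p = 0.021). In all 5 genes the K139Q and MSX1 libraries did not overlap. They were picked by the p values of these same libraries, so this is a description and adds no support. No share over all tested genes is given for it. EGR1 passed under every alternative that was run. H1-2 did not pass with any of the 3 replicate blocks (adjusted p = 0.055 to 0.062), nor H2BC5 with 2 of them (0.070 and 0.093), nor H3C2 and FOSB with the block by library names (0.052 for both). Each of these 4 also failed in at least 3 of the 6 fits that left out 1 library.

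**Figure D5:**
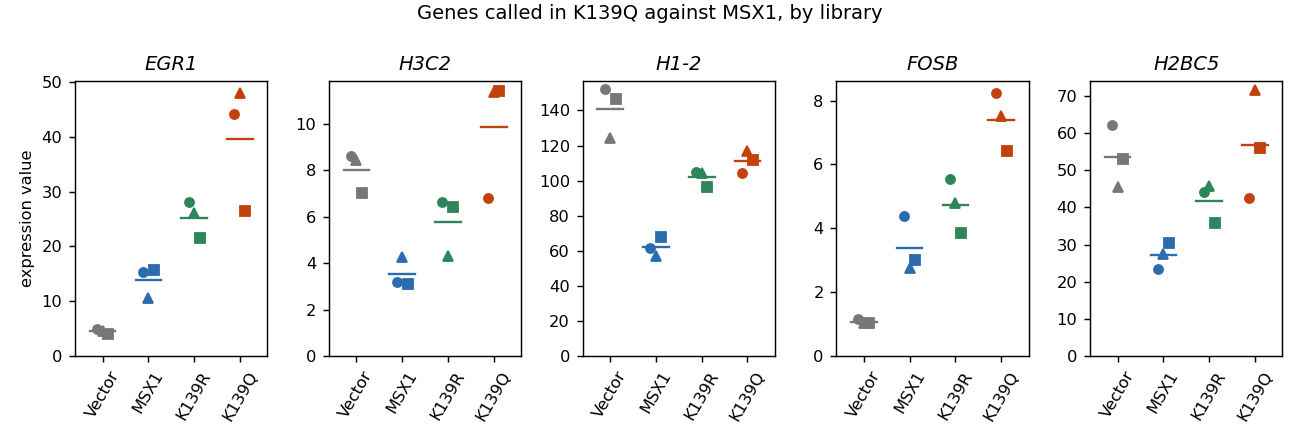
Expression value (vertical axes, each from 0) of the 5 genes that passed in K139Q against MSX1, by plasmid group, with a marker for each replicate and a bar for the mean of 3 libraries. EGR1 was 26.6 to 48.0 in K139Q and 10.6 to 15.7 in MSX1, and the 3 histone genes were lowest in MSX1.

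Against K139R, 1 of the 533 genes passed (0.188%), and 49 had an unadjusted p under 0.05. It was ENSG00000254721, a transcript without a symbol, which was 2.64, 1.78 and 4.90 in K139R and 0.35, 0 and 0 in K139Q (-1.82 ± 0.27, limma adjusted p = 0.0050). K139R replicate 1 differed by at least 1 from the other K139R libraries in 35 and 69 genes, beside 10 between those. Without it, 26 genes passed, and 20 passed when libraries were weighted by quality. The next genes were CRIP3 (-0.87 ± 0.20) and LCN15 (0.76 ± 0.18), both with an adjusted p of 0.17. EGR1 had 28.1, 26.0 and 21.5 in K139R, partly below and partly within the K139Q values of 26.6 to 48.0, and its difference of 0.60 ± 0.23 did not pass (adjusted p = 0.43).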

How the data were processed

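RNA-seq libraries were made by the authors with poly(A) selection and a stranded kit, and reads were trimmed with Trimmomatic. The labels name RSEM and the study's methods featureCounts as the quantification tool. The study's methods state a target depth only. The genome build, the strand setting and the reads obtained per library are not given in the sources used here, and counting error could not be computed. The deposited values are scores, each gene scaled by the authors to z scores of ln(value + 1) over 12 libraries. Values in steps of 0.01 were recovered for 665 of 666 genes, and RN7SL1 was left out. The authors had chosen the genes for MSX1 against Vector with DESeq2.

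Genes whose mean reached 1 in any of the 4 groups (533) were fitted with limma 3.58.1 (R 4.3.3) on log2(value + 1), all 12 libraries in 1 fit, with Benjamini-Hochberg adjustment over tested genes and a call at an adjusted p under 0.05. A single value was tested by an exact two-sided permutation test. The fit was tested on simulated data. The study's methods call the 3 samples of a group biological replicates.

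Named were MSX1, the 15 largest rises and 10 largest falls among called, non-overlapping genes with a symbol, the 5 called genes with the largest and the 5 with the smallest log2 SD in K139Q at a K139Q mean of at least 10, the 5 smallest p against MSX1 and against K139R, and up to 4 members of each list. Further members and features that are singled out were chosen after their values were seen. The hematopoietic marker list is not reported here. Members and lists were chosen with earlier results of these data known.

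The labels put the replicate number in a field called batch. Deviations of same-numbered K139Q and Vector libraries had correlations of -0.07, 0.03 and -0.02 across genes. Alternatives were other pseudocounts (0.1 and 5), filters, scaling, GC correction, weights, a replicate block, and leaving out each library. GC content came from GENCODE transcripts and promoters from RefSeq.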

Additional observations from a re-analysis of the deposited data

Results flagged for a closer look

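In 6 cases K139Q differed from another MSX1 plasmid by limma's test of the difference itself. In K139Q against MSX1 the log2 differences were 1.42 for EGR1, 0.95 for FOSB, 1.02 for H2BC5, 0.83 for H1-2 and 1.25 for H3C2, each higher in 3 of 3 K139Q libraries. In K139Q against K139R it was -1.82 for ENSG00000254721, lower in 3 of 3 K139Q libraries. The genes were picked by that test on these same libraries, so the counts of libraries are a description.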

How the results depend on the processing

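Of 73 named genes and list members followed in K139Q against Vector, 43 kept their direction and their side of the threshold under every alternative, and 61 did under every alternative other than the quantile scalings. For the 391 genes called, the filter at a mean of 5 left 170 genes to test and gave 138 calls (120 higher, 18 lower, 85 of at least 1). Quantile normalization gave 231 calls (114 higher, 117 lower, 91 of at least 1 and 10 of at least 2). Quantile normalization without MSX1, added after seeing the data because MSX1 took the highest rank in K139Q, gave 229 (115 higher, 114 lower, 88 of at least 1 and 8 of at least 2). Removing the GC trend left 28 lower and 13 of at least 2. A pseudocount of 0.1 gave 320 calls of at least 1 and 61 of at least 2, and a pseudocount of 5 gave 35 and 8. With the replicate block there were 380 calls by the titles' numbers, 372 by the library names' numbers and 379 with only 2 groups in the fit. The block by the titles' numbers changed the call of RBFOX3 among the followed genes, and that with only 2 groups changed the call of SKIL (adjusted p = 0.041). Leaving out single libraries gave 327 to 366 calls, 285 to 331 higher, 28 to 53 lower, 116 to 159 of at least 1 and 14 to 21 of at least 2, and a log2 fold change of 8.72 to 9.12 for MSX1.

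Directions turned under quantile normalization for HSPB1 (-0.022), DNAJB1 (-0.87), HSP90AA1 (-2.40), H3C2 (-0.36) and FGF5 (-0.076). HSP90AA1 held the highest rank in every Vector library and MSX1 in every K139Q library, so this scaling sets 1 against the other. Without MSX1 the values were -0.38 for DNAJB1, -0.26 for HSP90AA1, -0.36 for H3C2 and -0.076 for FGF5. HSPB1 was then positive (0.49, limma adjusted p = 0.16). The GC correction turned H4C5 (0.17) and SKIL (0.42), and leaving out 1 library gave -0.50 to 0.0099 for H4C11 (positive without Vector replicate 1) and -0.041 to 0.53 for FGF5 (negative without K139Q replicate 1). The cause was not tested.

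For K139Q against MSX1, 8 genes passed when only those 2 groups were fitted, 9 with quality weights and 3 at a pseudocount of 0.1. With the replicate block 3, 1 and 15 passed, by the titles' numbers, the library names' numbers and with only 2 groups. Without single libraries 2 to 10 passed. For K139Q against K139R, 0 passed at a pseudocount of 5, with the filter at a mean of 5, with quantile normalization, or with only those 2 groups with or without the block. In the fit reported, 1 passed and 49 had an unadjusted p under 0.05. With quality weights 20 passed, and without single libraries 1 to 26. Values near 0 are the least precise, since 163 of the 341 genes called higher had a Vector mean under 1.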

Other observations

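FLVCR2, a choline transporter chosen here after its values were seen, was 14.1 in K139Q replicate 2 and 1.65 and 0.89 in replicates 1 and 3, with 0.32, 0.53 and 1.31 in Vector. It was called higher (log2 fold change 1.338, limma adjusted p = 0.041) although replicate 3 lay within the Vector range, and it had the largest log2 SD in K139Q of all called genes, 1.61. The zinc finger gene ZFAND2A, known as a heat shock and arsenite-induced gene and likewise chosen after its values were seen, rose from 42.3 ± 5.22 in Vector to 117 ± 12.7 in K139Q (SD, n = 3; log2 fold change 1.45 ± 0.17, adjusted p = 1.8e-05).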
